A study of Mus musculus with 6 samples.

Results

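The 10 genes examined here belong to the HoxC and HoxD clusters and were measured in sorted blood progenitors of NHD13 transgenic mice. They are Hoxc4, Hoxc5, Hoxc6, Hoxc8 and Hoxc9, and Hoxd3, Hoxd4, Hoxd8, Hoxd9 and Hoxd13. They were chosen by the gene symbol of the platform annotation, and 11 of the 45281 probes on the array carried 1 of these 10 symbols, out of 19057 gene symbols in all. Hoxd9 had 2 probes and each of the others had 1. The cells were lineage-negative, Kit-positive (LK) bone marrow cells, a marrow fraction rich in early progenitors, which the study isolated by fluorescence-activated sorting. Of the 6 bead arrays, 3 came from mice carrying NHD13 and 3 from wild type mice, all 3 months old, and each array held RNA pooled from 3 mice. NHD13 stands for the NUP98-HOXD13 fusion gene, known from human leukaemia and myelodysplastic syndrome. Neither its promoter nor the mouse strain is stated in the labels used here.

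Hox genes encode homeodomain transcription factors that stand in 4 clusters, and genes at the same place in each cluster form a paralogue group. In the embryo they give each body level its identity, and their order along the chromosome follows the order of the levels they pattern. In blood, stem cells and early progenitors use mostly HoxA and HoxB genes, while HoxC and HoxD genes are better known from the trunk, the limbs and the skin. The NUP98-HOXD13 protein joins the nucleoporin part of NUP98 to the homeodomain of HOXD13. The comparison asks whether genes of these clusters are read differently in progenitors that carry the fusion.

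Hoxc6 and Hoxd8 rose in NHD13 cells, each from below background on all wild type arrays. Hoxc9 and Hoxd4 were likewise detected on all 3 NHD13 arrays and on no wild type array, but their differences did not pass the test. The other 6 genes, among them Hoxc8 between Hoxc9 and Hoxc6, were dim in both genotypes. A probe counts as detected where its deposited detection p-value, which sets it against negative control probes, is under 0.05. The pattern of 3 NHD13 and no wild type arrays was shown by 4 of the 11 probes, against 0.174% of all 45281 probes on the array (79 probes). The opposite pattern, 3 wild type and no NHD13 arrays, was shown by 0 of the 11 and by 0.243% of all probes.

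**Figure D1:**
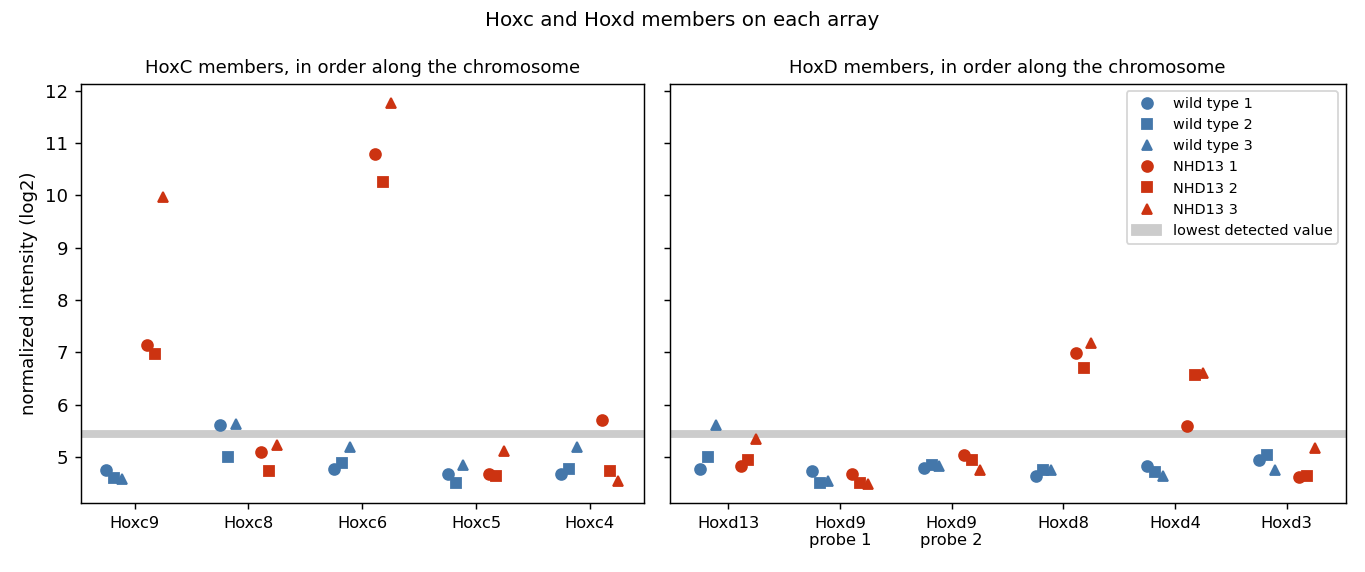
Normalized intensity (log2) of the 11 member probes on each of the 6 arrays, in the genes' order along each cluster. Blue marks wild type, red marks NHD13, the shapes mark replicates 1 to 3, and the grey band spans the lowest detected values of the arrays (5.39 to 5.49). Hoxc6, Hoxc9, Hoxd8 and Hoxd4 lie above the band on every NHD13 array and below it on every wild type array.

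Values below are normalized log2 intensities, which were not comparable between different probes, so each probe was compared only with itself across arrays. The limma test took the 16518 probes with detection on 3 or more arrays, and p-values were adjusted over all of them by the Benjamini-Hochberg method. Of the 10 genes, 4 were tested and 2 rose at an adjusted p under 0.05, against 0.2% of all 9000 tested genes that passed as higher (18 genes). On the probe level 0.406% of the tested probes passed in either direction, and 0.151% passed as higher. All 4 tested genes entered the test through their NHD13 arrays alone, so they had to lie higher there. Of the 79 probes that entered in this way, 13 passed (16.5%). In 4 of the 4 tested genes the NHD13 values lay above all wild type values, as they did in 100% of those 79 probes and in 6.86% of all tested probes.

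The arrays detected 15983 to 16836 probes each, and the typical probe rested on 42 or 43 beads. The labels do not say how the pools relate to each other, so p-values measure the spread between these pools, and 3 arrays a genotype limit the precision. In the 4 tested members the wild type part of this spread comes from values below background. Of 5 progenitor markers, all were detected on the 3 wild type arrays and 4 on the 3 NHD13 arrays. Among them the brightest of 3 Kit probes measured 12.33 to 12.99 on the 6 arrays, and Gata2 measured 11.26 to 12.16. Cd34, a surface marker of stem and progenitor cells, measured 7.87, 7.63 and 7.82 in wild type and 5.79, 5.05 and 7.30 in NHD13 replicates 1 to 3. It lay lower on every NHD13 array, below background on replicate 2, and the difference of -1.73 did not pass (limma, adjusted p = 0.46). In that array the summed linear level of 5 progenitor markers was 21315, against 54082 to 59241 on the other 5 arrays, mainly through Mpo, the myeloperoxidase gene. Connective tissue also uses HoxC and HoxD genes. Of 15 mesenchymal, bone and endothelial markers, 11 were detected on no wild type and 9 on no NHD13 array, among them Col1a1, Col3a1, Lum and Sparc in both genotypes. Of this list 2 genes, Twist1 and Lepr, were tested and 0 passed. The list's summed level was 520 to 545 in wild type and 470 to 596 in NHD13 cells. Per array 1 to 4 of the list's 37 probes were detected, so this sum is largely background and could hardly show a change. Of 5 mature lineage markers on the array, Cd3e and Ms4a1 were tested and neither passed. The sum of this list was 179 to 191 in wild type and 148 to 219 in NHD13 cells. With 0 to 3 of its 6 probes detected per array, the same limit holds. The part of any of these cell types in the Hox values was not tested. In bulk samples, fewer cells of a type and less RNA per cell cannot be told apart.

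Hoxd13, the mouse gene whose human counterpart contributes to the fusion and which patterns the digits, stayed near background on all 6 arrays. It measured 4.77, 5.001 and 5.60 in wild type replicates 1 to 3, and 4.83, 4.95 and 5.34 in NHD13 replicates 1 to 3. It was just detected on 1 wild type array, replicate 3, and on 0 NHD13 arrays, the groups overlapped, and it was not tested. Which stretch of the gene the probe reads is not stated here, and it may lie outside the fusion, so this value does not check the labels.

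In the HoxC cluster on chromosome 15, Hoxc6 rose from below background to a bright signal. This gene is known from the spinal motor neurons and vertebrae at the level of the forelimb. It measured 4.76, 4.88 and 5.19 in wild type replicates 1 to 3, below background on all of them. In NHD13 replicates 1 to 3 it measured 10.80, 10.26 and 11.77. The lowest NHD13 array thus stood far above the highest wild type array. The wild type mean was 4.94 ± 0.22 and the NHD13 mean 10.94 ± 0.77 (log2, SD over 3 pools). The measured log2 difference of 5.997 ± 0.38 (SE) passed (limma, adjusted p = 0.0036). Because the wild type level is only a bound, Hoxc6 was at least 45.9-fold higher, a value that the p-value does not test. This bound sets the NHD13 mean against, on each wild type array, the lowest value of any detected probe or the probe's own value if higher. It depends on the normalization: it was 26.1-fold with an offset of 50 in place of 16, and 12.5-fold without background correction. On the deposited intensity scale, before any correction, the probe read 146, 141 and 159 in wild type and 1913, 1271 and 3427 in NHD13 cells. The standard error over beads was at most 139 on any of these arrays.

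Hoxc9, which specifies thoracic motor neurons in the mouse, was dim in all wild type pools, at 4.75, 4.59 and 4.57. It measured 7.15, 6.97 and 9.96 in NHD13 replicates 1 to 3. All NHD13 values lay above all wild type values, and NHD13 replicate 3 lay 2.81 and 2.99 above the other NHD13 arrays (log2). With means of 8.03 ± 1.68 and 4.64 ± 0.09 (SD, n = 3), the level was at least 6.09-fold higher under this normalization. Yet it did not pass (limma, log2 difference 3.39 ± 0.75 SE, adjusted p = 0.22). The SD of 1.68 exceeded that of 98.9% of tested probes in NHD13 cells. Without NHD13 replicate 3 the difference was 2.42, the bound was 3.11-fold, and the gene passed (adjusted p = 0.0094).

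For Hoxc9 and Hoxc6 the gap of NHD13 replicate 3 was far larger than the error over beads. For Hoxc9 the deposited intensities in NHD13 cells were 257 ± 15.3, 227 ± 8.74 and 1080 ± 37.2 (SE over beads), so replicate 3 stood 20.5 and 22.3 combined bead standard errors above replicates 1 and 2. For Hoxc6 it stood 9.29 and 14.3 such errors above them. Bead errors measure only the reading of 1 array, not the spread between pools of mice. Hoxd8 also read highest in replicate 3 and lowest in replicate 2, while Hoxd4 had its lowest value in replicate 1.

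**Figure D2:**
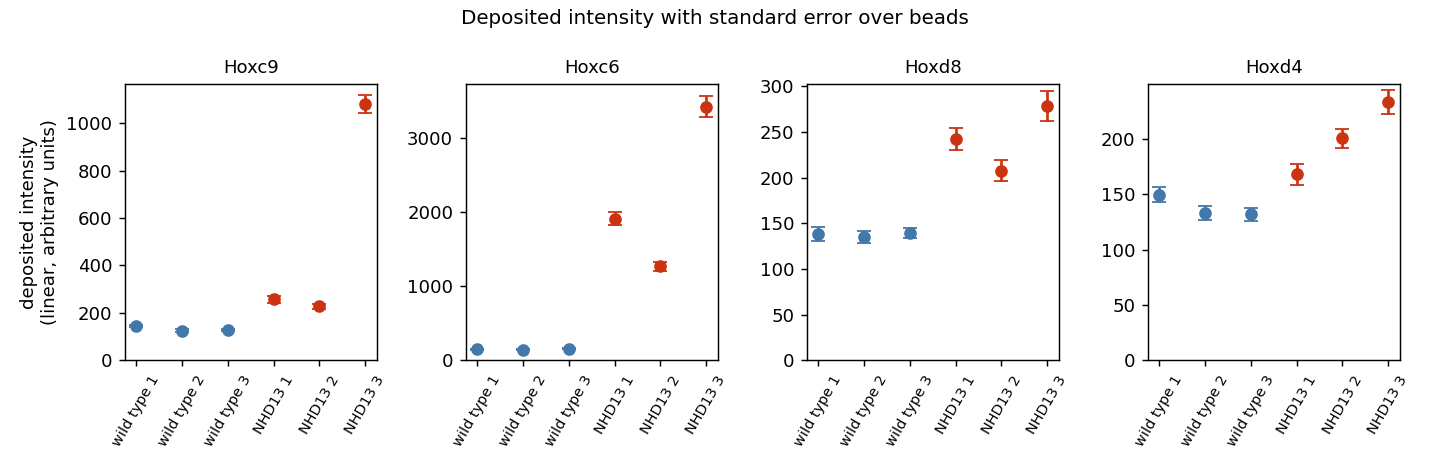
Deposited intensity (linear, arbitrary units, not normalized) of the 4 detected members on each array, with bars for the standard error over beads. Blue marks wild type and red NHD13. NHD13 replicate 3 reads 1080 for Hoxc9, against 257 and 227 in the other NHD13 arrays.

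The HoxC members around these 2 genes stayed near background. Hoxc8, which patterns thoracic vertebrae and lies between Hoxc9 and Hoxc6, measured 5.62, 5.01 and 5.63 in wild type and 5.10, 4.73 and 5.22 in NHD13 cells. It was detected on 2 wild type arrays and on 0 NHD13 arrays, and the groups overlapped. Hoxc5, the next gene on the other side of Hoxc6, ranged from 4.51 to 4.84 in wild type and from 4.64 to 5.11 in NHD13 cells and was detected nowhere. Hoxc4, a gene also known from B lymphocytes, was detected only in NHD13 replicate 1, at 5.70, with 4.73 and 4.54 in the other NHD13 arrays and 4.68 to 5.20 in wild type. Its probe rested on 15 to 27 beads per array, fewer than the array medians. None of the 3 was bright enough to be tested. Probe positions within the genes were not at hand, so a low value speaks of the stretch that the probe reads.

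In the HoxD cluster on chromosome 2, Hoxd8 rose. It belongs to the genes that pattern the trunk. Its values were 4.64, 4.76 and 4.75 in wild type and 6.98, 6.69 and 7.18 in NHD13 replicates 1 to 3. The groups did not overlap: the means were 4.72 ± 0.06 and 6.95 ± 0.24 (SD, n = 3 pools each). The wild type SD is a spread of values below background. The measured log2 difference of 2.23 ± 0.17 (SE) passed (limma, adjusted p = 0.0066). Since all wild type arrays were below background, Hoxd8 was at least 2.89-fold higher, a bound that the p-value does not test. The bound ranged from 2.67 to 3.16-fold when any 1 array was left out. It depends on the normalization: it was 2.06-fold with an offset of 50 and 1.49-fold without background correction. In deposited intensity it read 138, 135 and 139 in wild type and 242, 208 and 279 in NHD13 cells.

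Hoxd4, a gene of the hindbrain and neck vertebrae, measured 4.82, 4.71 and 4.64 in wild type and 5.59, 6.57 and 6.61 in NHD13 replicates 1 to 3. Replicate 1 was only just detected, while the others stood further above background. The level was at least 1.79-fold higher under this normalization, and the difference of 1.54 ± 0.29 (log2, SE) did not pass (limma, adjusted p = 0.15). Without NHD13 replicate 1 it was 1.87 and passed (adjusted p = 0.049).

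Hoxd3, Hoxd9 and Hoxd13, the remaining HoxD members, were dim in both genotypes. Hoxd3 ranged from 4.76 to 5.05 in wild type and from 4.62 to 5.18 in NHD13 cells, although the annotated span of Hoxd3 contains that of Hoxd4. The 2 probes of Hoxd9, a limb patterning gene next to Hoxd8, ranged from 4.50 to 4.85 in wild type and from 4.48 to 5.04 in NHD13 cells. Neither probe was detected on any array. Fitted without the detection filter, the 7 probes of the 6 dim genes differed by -0.40 (Hoxc8) to 0.14 (Hoxc5), and their adjusted p-values lay between 0.83 and 0.97 (limma over 45281 probes).

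**Figure D3:**
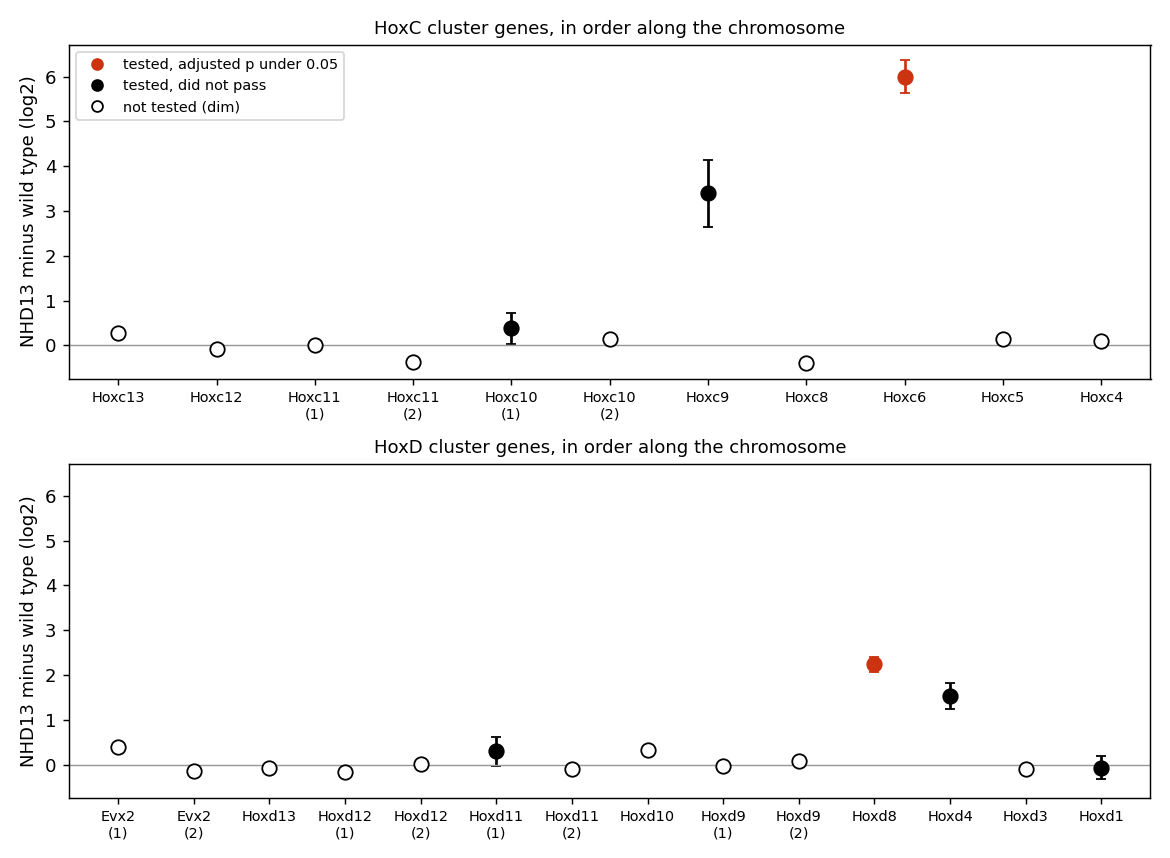
Difference between NHD13 and wild type means (log2) of every probe of the HoxC (top) and HoxD (bottom) clusters, genes in order along the chromosome and numbers in brackets for several probes of a gene. Bars are standard errors of tested probes, red marks those with an adjusted p under 0.05, and open circles were too dim to test. Hoxc6 (5.997), Hoxc9 (3.39), Hoxd8 (2.23) and Hoxd4 (1.54) lie above the other probes of their clusters.

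Promoter sequences were at hand for 6 of the 10 genes: Hoxc4, Hoxd3, Hoxd4, Hoxd8, Hoxd9 and Hoxd13. The windows of Hoxd8 and Hoxd4, both detected in NHD13 cells, are shown with that of Hoxd9, the dim neighbour of Hoxd8, so that genes that differ in the readout can be set side by side. Each runs from 250 bases before to 50 bases after the gene's start (RefSeq, GRCm38.p6, 5′ to 3′). Capitals mark TAAT on either strand, the core that homeodomains bind.
Hoxd8, chr2:74704365-74704664, plus strand: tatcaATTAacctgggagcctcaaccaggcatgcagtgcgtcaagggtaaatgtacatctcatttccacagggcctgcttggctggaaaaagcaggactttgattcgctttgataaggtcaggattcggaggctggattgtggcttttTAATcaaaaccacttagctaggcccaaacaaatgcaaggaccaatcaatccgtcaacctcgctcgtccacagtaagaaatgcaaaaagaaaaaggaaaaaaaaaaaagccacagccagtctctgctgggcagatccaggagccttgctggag
Hoxd4, chr2:74721728-74722027, plus strand: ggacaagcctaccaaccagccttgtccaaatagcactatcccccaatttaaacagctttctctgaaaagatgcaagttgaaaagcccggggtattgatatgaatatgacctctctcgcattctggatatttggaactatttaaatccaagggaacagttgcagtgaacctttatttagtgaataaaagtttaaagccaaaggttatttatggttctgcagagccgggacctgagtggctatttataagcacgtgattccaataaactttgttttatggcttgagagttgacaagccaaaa
Hoxd9, chr2:74697513-74697812, plus strand: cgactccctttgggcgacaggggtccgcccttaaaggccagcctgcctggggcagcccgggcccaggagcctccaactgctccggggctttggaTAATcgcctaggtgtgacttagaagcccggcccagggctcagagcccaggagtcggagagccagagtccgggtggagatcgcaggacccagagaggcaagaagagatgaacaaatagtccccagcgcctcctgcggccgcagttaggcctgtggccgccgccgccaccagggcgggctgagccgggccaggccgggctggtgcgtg
Hoxd8 held 2 such cores, Hoxd9 held 1 and Hoxd4 held 0, and 58% of 32851 mouse promoters of this length hold at least 1. The pair site of Pbx and Hox proteins, searched as TGATTNAT on both strands, was in none of the 6 windows and is in 3.22% of all promoters. The letters CAATAAA, an AT-rich form bound by the HOX13 group, were found once, in Hoxd4, and are in 4.6% of all promoters. The GC content was 39.7% in Hoxd4 and 46.7% in Hoxd8, against 54% in Hoxd3, 60.3% in Hoxc4, 68.3% in Hoxd9 and 74.3% in Hoxd13, with a median of 52.7% over all promoters. These are matches of letters in 1 window per gene, not binding sites.

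The 9 other genes of the 2 clusters did not pass in either direction. They were Hoxc10 to Hoxc13, Hoxd1, Hoxd10 to Hoxd12 and Evx2, a homeobox gene beside HoxD. Of these, 3 were tested: Hoxc10 differed by 0.38 (adjusted p = 0.79), Hoxd11 by 0.29 (adjusted p = 0.81) and Hoxd1 by -0.07 (adjusted p = 0.94; limma, n = 3 pools each). None of the 9 was detected on all arrays of a genotype. Of the listed non-coding RNAs of the clusters, Hoxd3os1 had probes on the array, and neither of its 2 probes was detected. The genes that flank the clusters showed no calls either. Of 7 listed beside HoxC, 6 were tested, with 0 called and a median difference of 0.00, and of 6 beside HoxD on the array, 4 were tested, with 0 called and a median of -0.06. Nfe2, an erythroid and megakaryocyte transcription factor gene near HoxC, measured 12.61 ± 0.16 in wild type and 12.34 ± 0.16 in NHD13 cells (log2, SD, n = 3, limma adjusted p = 0.71).

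Paralogues of the detected members differed in their readout. In group 6, Hoxb6 rose from below background, at a log2 difference of 2.16 (limma, adjusted p = 0.0066). Its bound was at least 2.81-fold, while Hoxa6 was detected on 0 of 6 arrays. In group 8, the probes of Hoxb8 and Hoxc8 were detected on 0 NHD13 arrays, so Hoxd8 was the one member of that group detected in NHD13 cells. In group 9, Hoxa9 was detected on all 6 arrays and rose from 7.61 ± 0.34 to 9.66 ± 0.12 (brightest probe, log2, SD, n = 3, limma adjusted p = 0.016). Hoxb9 was detected on 1 NHD13 array and Hoxd9 on 0. In group 4, Hoxa4 and Hoxb4 were detected on all 6 arrays and did not pass, at differences of 0.55 and -0.02. Of the HoxA list, which here includes Evx1 beside the cluster, 3 of 8 tested genes rose and 0 fell. Hoxa2 did not pass by its brightest probe (difference 1.58, limma, adjusted p = 0.09), while its other probe passed (1.70, adjusted p = 0.022). Evx1 was 1 of the 8, at a difference of -0.11 (limma, adjusted p = 0.87). Of the HoxB genes 3 of 4 rose and 0 fell. All 4 tested HoxC and HoxD members were below background on all wild type arrays, and so were tested through their NHD13 arrays alone. The same held for 3 of the 4 HoxB genes (the 3 that rose) and 2 of the 8 genes of the HoxA list. With such genes at their bound, the median log2 difference was 2.07 for the members, 2.13 for HoxB and 1.04 for the HoxA list with Evx1. Over all 9000 genes it was 0.03. With measured values in place of the bounds the medians of these 3 lists were 2.81, 2.67 and 1.19, so the order of the members and HoxB turned. No test of a difference between the clusters was made.

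Hox proteins bind DNA together with Pbx and Meis proteins. Of 8 cofactor genes on the array 5 were tested, of which 1 rose and 1 fell. Pbx3 measured 5.49 ± 0.18 in wild type and 8.34 ± 0.40 in NHD13 cells (log2, SD, n = 3, limma adjusted p = 0.0075). Meis1 measured 10.57 ± 0.11 and 9.30 ± 0.24 by its brightest probe (limma, adjusted p = 0.048). Its other tested probes differed by -1.65 (adjusted p = 0.15) and -0.10 (adjusted p = 0.87) and did not pass.

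Among tested named genes, Hoxd8 had the pattern most like that of Hoxc6 over the 6 arrays, and Hoxa7 and Ccdc65 followed. Genes with predicted or clone-style symbols (such as Gm numbers, Rik and LOC) were left out of these rankings. Pearson's r with Hoxc6 was 0.9986 for Hoxd8, 0.992 for Hoxa7 and 0.992 for Ccdc65. Most like Hoxd8 were Hoxc6, Hoxb6 (0.997) and Ccdc65 (0.991). These values describe 6 arrays that fall into 2 genotypes, so the gap between genotypes makes up most of each, and all genes share the same arrays. With each genotype's mean removed, r with Hoxc6 was 0.944 for Hoxd8, 0.865 for Ccdc65 and 0.587 for Hoxa7. Among the 10 named genes most like Hoxc6 by the first measure, Igf2bp3 then came first, at 0.951. Igf2bp3, an RNA-binding protein gene, is named here after its values were seen. The r values with genotype means removed rest mainly on the NHD13 arrays, since Hoxc6 lay below background on every wild type array. The sizes differ widely: Ccdc65 differed by 0.26 (adjusted p = 0.69), Hoxa7 by 1.95 and Hoxc6 by 5.997 (log2).

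**Figure D4:**
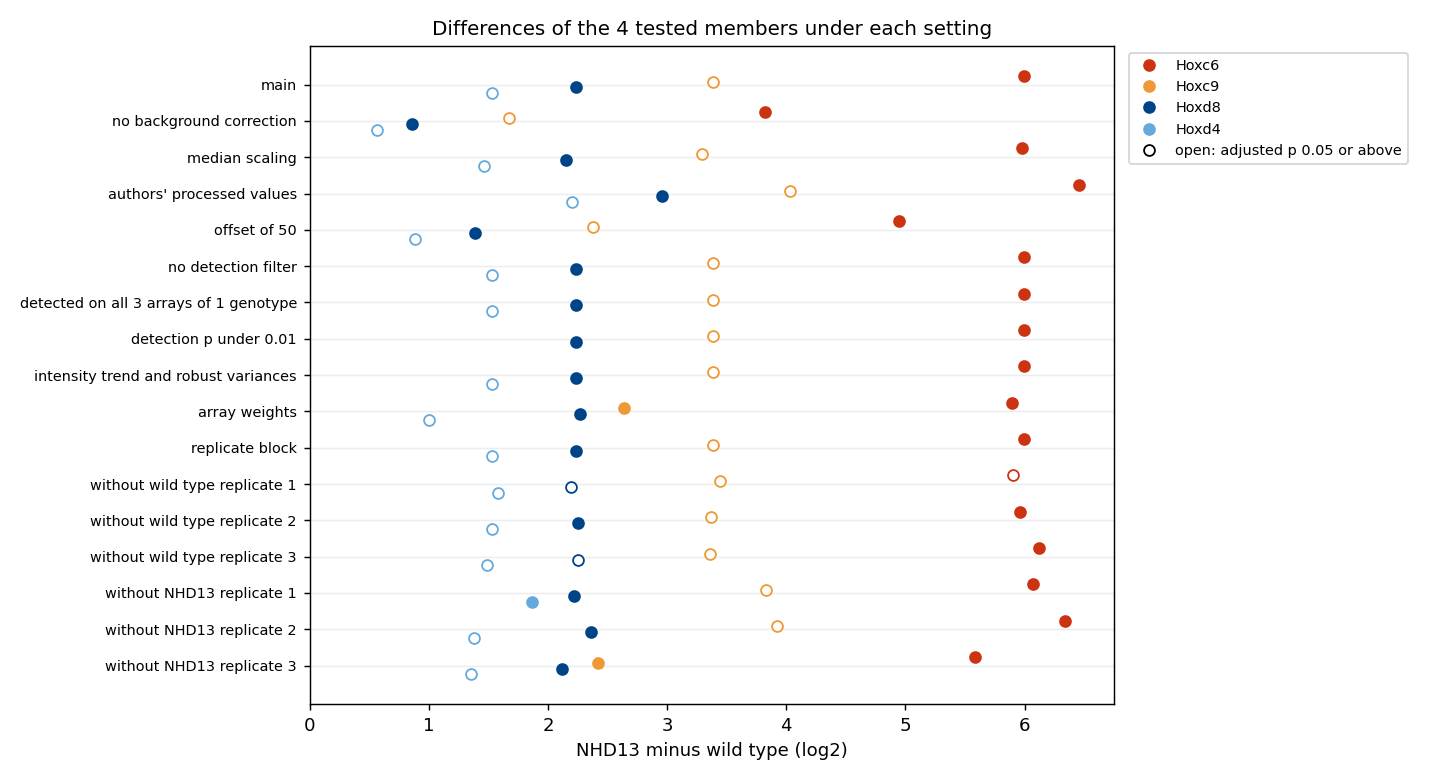
Log2 difference between NHD13 and wild type of Hoxc6, Hoxc9, Hoxd8 and Hoxd4 under the main and each alternative setting. Filled circles have an adjusted p under 0.05 and open ones do not. All lie above 0, as they had to for genes detected on NHD13 arrays alone. Hoxc6 is open without wild type replicate 1 (adjusted p = 0.055), and Hoxd8 without wild type replicate 1 (0.068) or 3 (0.062).

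The 2 calls depended on single wild type arrays, though the size of each difference moved little. Without wild type replicate 1 neither gene passed (adjusted p = 0.055 for Hoxc6 and 0.068 for Hoxd8), and 1 probe passed in all. Without wild type replicate 3 Hoxc6 passed (0.041) and Hoxd8 did not (0.062). With these arrays left out, the difference was 5.91 and 6.12 for Hoxc6 and 2.20 and 2.25 for Hoxd8. The size of the difference moved with the background correction and the offset. With an offset of 50 it was 4.95 for Hoxc6, 2.38 for Hoxc9, 1.39 for Hoxd8 and 0.89 for Hoxd4. Without background correction it was 3.82 for Hoxc6, 1.67 for Hoxc9, 0.86 for Hoxd8 and 0.57 for Hoxd4. From the authors' processed values it was 6.45, 4.03, 2.96 and 2.20, in the same order of genes. For this fit negative values were set to 0, 16 was added and log2 was taken. All wild type values of Hoxc9 and Hoxd8 were negative there and so became equal.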

How the data were processed

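Per the file headers, the first deposited table gives each probe's average intensity, bead number, standard error over beads and detection p-value, with no normalization or background subtraction. The deposited p-values come in steps of 1 in 936. The second deposited table holds the authors' processed intensity values, linear and of 1 distribution on all arrays, with a lowest value of -45.6. The labels state no scanner software or settings. Per the labels' protocols, cDNA was primed with oligo(dT) and biotin was added by in vitro transcription.

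The first table was normalized with neqc of limma 3.58.1 in R 4.3.3 (controls inferred from detection p-values, offset 16, quantile normalization, log2). Probes with a detection p under 0.05 on at least 3 arrays were tested two-sided with lmFit and eBayes. A gene stands for its brightest tested probe. The platform annotation gives 34885 probes 1 symbol, 18 several and 10378 none. Gene IDs of 34807 were found in the RefSeq table of GRCm38.p6, and 0 symbols changed. The fit was tested on simulated data.

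Members, gene lists, tests and alternatives were chosen with earlier results of these data known. Named were all 10 members, listed neighbours, paralogues and cofactors, and the 3 genes most like Hoxc6 and Hoxd8, with predicted and clone-style symbols left out. Kit, Gata2, Mpo, Cd34 and the other markers are a fixed list. Nfe2 and the paralogues described were picked from the lists with values known.

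The labels number the pools 1 to 3 in each genotype. Deviations from group means correlated at 0.19, 0.67 and 0.54 between arrays of the same number, all over 0.1, so the numbers were taken to pair the arrays, and an alternative fit held them as blocks. What the number shares is not stated, and arrays of unlike number reached 0.24. NHD13 replicate 2 lay farthest out on the first principal component (59.1% of variance).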

Additional observations from a re-analysis of the deposited data

How the results depend on the processing

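Every difference of Hoxc6, Hoxc9, Hoxd8 and Hoxd4 stayed above 0 under every alternative that tested them (16, 16, 16 and 15). These genes were detected on NHD13 arrays alone, so they had to lie higher there, and the sign adds no support. Hoxc6 passed in 15 of 16, Hoxd8 in 14 of 16, Hoxc9 in 2 of 16 and Hoxd4 in 1 of 15. With array weights Hoxc9 passed (2.64, adjusted p = 0.029); the weights ran from 0.35 for NHD13 replicate 3 to 5.02 for NHD13 replicate 1. Leaving out 1 array at a time, the differences ranged from 5.58 to 6.34 for Hoxc6, from 2.42 to 3.92 for Hoxc9, from 2.12 to 2.36 for Hoxd8 and from 1.36 to 1.87 for Hoxd4, and 0 to 3 members were called. Without any 1 NHD13 array, 4 probes were detected on the remaining ones, a count that could not fall below 4. At a detection p under 0.01, 3 probes were detected on all NHD13 arrays, which drops Hoxd4. Over all probes, 67 were called, 36 without background correction, 11 with detection on all 6 arrays and 579 with array weights, and 1 to 88 without 1 array. Requiring detection on all 6 arrays leaves no member to test. Scaling arrays to a common median moved the share of higher calls from 37.3% to 31.5%. With the replicate block, 79 probes passed, Hoxc6 had an adjusted p of 0.015, Hoxd8 of 0.021, Hoxd4 of 0.13 and Hoxc9 of 0.14, and the block changed no call of a member. The cause of these changes was not tested. A wild type level below background limits every fold to a bound, and the bounds move with the normalization: over 5 scalings they ran from 12.5 to 46.8 for Hoxc6, from 2.52 to 6.23 for Hoxc9, from 1.49 to 2.96 for Hoxd8 and from 1.22 to 1.83 for Hoxd4.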
